A study of Rattus norvegicus with 6 samples.

Results

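Cytosolic ribosomal proteins are the protein parts of the ribosome that translates nuclear-encoded messages, and their 78 genes are described here in rat lung. Members were rows of the deposited count table named Rpl or Rps and a number, with Rplp0, Rplp1, Rplp2 and Rpsa, leaving out the Rps6k kinases, pseudogene names and genes under 1 CPM (counts scaled to a common library size) on average. Of 22835 genes in the table, 80 matched the names and 78 passed the minimum, 32 of the small 40S subunit and 46 of the large 60S subunit, and all 78 entered the test. Rpl39l and Rpl3l were left out, averaging 0.124 and 0.230 CPM, whereas the lowest member, Rps27l, had between 38.4 and 69.0 CPM. A further 22 numbered Rpl or Rps names, such as the paralog Rpl22l1, were not matched by the rule, and the members held 98.7% of the counts of all 102 such names.

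Whole lungs of female rats aged 12 weeks, on the SD background, gave the RNA, with 3 animals per genotype. In the rats called ND1_cKO, Sftpc-Cre, Cre recombinase driven by the promoter of the alveolar type 2 cell gene for surfactant protein C, was combined with the LSL-DdCBE-ND1 allele, which carries a base editor aimed at the mitochondrial gene ND1 behind a stop cassette. The series description calls the result a knockout of ND1 in the lung epithelium. The protein made from ND1 belongs to the core of complex I of the respiratory chain. The reference animals, called control, were ND1LSL littermates per that description and wild type per the sample labels. Cre and the active editor differ between the genotypes together with ND1, so their effects cannot be told apart. Cre acts in the Sftpc lineage, while the libraries hold the RNA of all lung cells, so fewer cells of a type and less RNA per cell cannot be told apart either.

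A ribosome holds a copy of nearly every one of these proteins, so cells make them in matched amounts, and much of that matching is done on translation and on removal of unused protein rather than on messenger RNA. Their transcripts are short, abundant and stable, and most begin with a run of pyrimidines at the cap, the 5′ terminal oligopyrimidine (TOP) tract, through which mTOR and the RNA-binding protein LARP1 control their translation. Dividing cells are known for high ribosome production.

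Start sequences are shown first because the TOP tract is the feature the family is known for. Each line gives 15 bases before and 15 bases from the RefSeq start of transcription (GRCr8). Capitals mark the tract where the start is a C followed by at least 4 bases that are each C or T, and otherwise the start base alone. The genes are the paralog pairs Rps27l with Rps27 and Rpl22l1 with Rpl22, a choice of other members described by value, some with and some without the tract, and Rpl30l2, named as like Rpl30.
Rps27l, chr8:76443643-76443672, plus strand: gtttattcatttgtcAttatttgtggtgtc
Rps27, chr2:177964592-177964621, minus strand: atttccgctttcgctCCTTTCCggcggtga
Rpl12, chr3:36661925-36661954, plus strand: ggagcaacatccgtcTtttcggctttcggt
Rps2, chr10:14251833-14251862, plus strand: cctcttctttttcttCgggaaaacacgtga
Rpl41, chr7:1563483-1563512, minus strand: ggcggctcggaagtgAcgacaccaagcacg
Rpl39, chrX:121195882-121195911, minus strand: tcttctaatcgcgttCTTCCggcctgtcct
Rplp0, chr12:46718376-46718405, minus strand: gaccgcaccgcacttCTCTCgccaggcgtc
Rps18, chr20:4933730-4933759, plus strand: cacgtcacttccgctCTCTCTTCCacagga
Rpl22, chr5:168117946-168117975, plus strand: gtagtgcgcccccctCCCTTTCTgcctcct
Rpl22l1, chr2:113683181-113683210, plus strand: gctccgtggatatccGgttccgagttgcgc
Rpl30l2, chr10:37332846-37332875, minus strand: aaagcagttgctacaCCTTTCTCgctcccc

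RefSeq promoter entries were found for 63 of the 78 members. The tract stood at the annotated start, on the gene's strand, in 24 of them (38.1%), against 2.63% of all 33469 promoter entries. When the tract could begin within 10 bases of the start it was found in 47 members (74.6%), against 28.9% of all entries. A member was counted if any of its entries held the tract, whereas the shares of all entries are per entry, so the measures differ. The median log2 fold change (ND1_cKO over control) was 0.21 for the 24 members with the tract at the start and 0.20 for the 39 without it there. Many of these 39 hold a tract within 10 bases, so the medians do not compare members with and without a tract. A tract found here is a match of letters at an annotated start, and the start itself was not measured.

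Total counts lay between 36526203 and 37093879 in ND1_cKO libraries and between 28669995 and 38303274 in control libraries. The targeted gene ND1 had 3427 to 3737 CPM in ND1_cKO libraries and 2432 to 3083 CPM in control libraries, and its log2 fold change of 0.40 had an edgeR adjusted p of 0.125. Counts report its transcript and not the edit. The defining genes of alveolar type 2 cells were present in every library, with a summed 22080 to 35216 CPM in ND1_cKO and 29346 to 33832 CPM in control libraries over 10 genes. This overlapping sum holds genes with fold changes of opposite sign. Sftpd was called higher in ND1_cKO (log2 0.81 ± 0.12, edgeR adjusted p = 0.0317), whereas Sftpc, whose promoter drives Cre, was at -0.78 ± 0.24 and Etv5 at -0.98 ± 0.20 without overlap or a call (edgeR adjusted p = 0.133 and 0.0539). The part of these genes in the ribosomal protein values was not tested. Of 16548 genes tested, 188 were called higher and 212 lower in ND1_cKO at an adjusted p below 0.05.

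Ribosomal protein genes took a slightly larger share of the counts in ND1_cKO lungs. The share was 3.56%, 3.57% and 3.70% in ND1_cKO replicates 1, 2 and 3, against 3.40%, 2.97% and 3.26% in control replicates 1, 2 and 3. All ND1_cKO libraries lay above all control libraries, and the closest were 3.56% in ND1_cKO replicate 1 and 3.40% in control replicate 1. The means were 3.61% ± 0.08 in ND1_cKO and 3.21% ± 0.22 in control (SD, n = 3 each), a difference of 0.40 percentage points. The 3 controls alone spanned 0.43 points, more than the difference between the genotypes. The 95% Wilson interval of each share reached at most 0.0065 points to either side, which covers counting error only. As a summary over chosen genes, the share was given no test. The mitochondrially encoded genes took 5.45% ± 0.28 of counts in ND1_cKO and 4.02% ± 0.23 in control (SD, n = 3 each), and their part in the ribosomal protein values was not tested.

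Both subunits shifted by nearly the same factor, 1.12 for 40S and 1.13 for 60S shares. The 40S members took 1.45% ± 0.05 of counts in ND1_cKO and 1.29% ± 0.09 in control, and the 60S members 2.16% ± 0.04 in ND1_cKO and 1.91% ± 0.14 in control (SD, n = 3 each). The 40S to 60S count ratio was 0.657, 0.679 and 0.687 in ND1_cKO replicates 1 to 3 and 0.677, 0.681 and 0.671 in control replicates 1 to 3. These ratios overlapped between the genotypes.

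On normalised counts (CPM with TMM library factors), the median member stood at 0.18, 0.19 and 0.24 on the log2 scale in ND1_cKO replicates 1, 2 and 3, and at 0.11, -0.13 and 0.03 in control replicates 1, 2 and 3, relative to the control mean. In most libraries nearly all members lay on one side of their control mean. In ND1_cKO replicates 1 and 2, 76 of 78 members were above their control mean, and in replicate 3 it was 77. Control replicates 1, 2 and 3 had 76, 1 and 56 members above the control mean, so the third control was split. ND1_cKO replicate 3 held the highest value of the 6 libraries for 57 members, and control replicate 2 held the lowest for 74. The controls spanned 0.24 on the log2 scale between their medians, which was wider than the 0.20 between the genotype means.

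**Figure D1:**
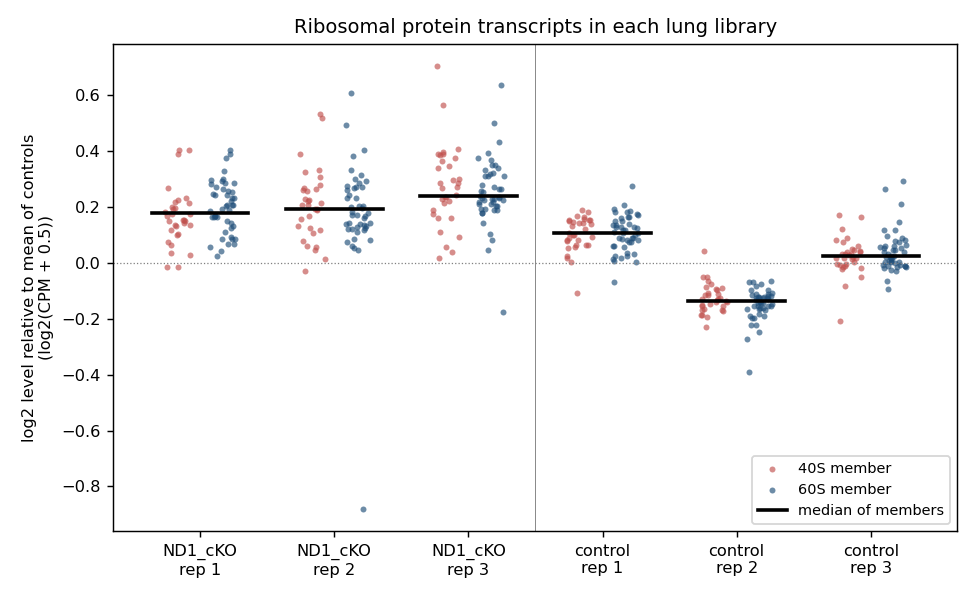
Each point is 1 ribosomal protein gene in 1 library, as its log2 level (log2 of CPM plus 0.5) relative to the mean of the 3 controls, with 40S members left and 60S members right in each library. The black bars are the medians, 0.18 to 0.24 in ND1_cKO libraries and -0.13 to 0.11 in control libraries. The low point in ND1_cKO replicate 2 is Rpl30.

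Gene by gene, 76 of 78 log2 fold changes were positive, with a median of 0.20, a 1.15-fold difference, and the middle 50% of members between 0.15 and 0.26. Over all genes tested 51.9% were positive, with a median of 0.01. Among 4304 other genes within the members' range of mean level (52.0 to 1275 CPM), 45.9% were positive and the median was -0.02. Rps27l alone sets the low end of that range, and the next lowest member, Rpl35a, averaged 132 CPM. These other genes are therefore not matched to the members in level. edgeR's quasi-likelihood test with Benjamini-Hochberg adjustment called 1 member higher and 0 lower, against a background of 1.14% of all genes called higher, 1.28% called lower and 2.42% in either direction. At an unadjusted p below 0.05, 27 members were higher and 0 lower, against 11.1% of all genes higher, 10.2% lower and 21.4% in either direction. The genotypes did not overlap, with ND1_cKO higher, in 45 members, against 14.1% of all genes. DESeq2 called 12 members higher and 0 lower (5.92% of all genes were called higher), and limma-voom called 0 members (0.937% of all genes higher). The share of members called by edgeR was therefore near the background. The shares positive, without overlap, higher at an unadjusted p below 0.05 and called higher by DESeq2 were above it. Members moved together within libraries, so these counts are not separate observations.

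The size of the shift depended on which control was left out. Without control replicate 2 the median log2 fold change was 0.14, the lowest of all left-out libraries, and without control replicate 1 it was 0.26, the highest. With any 1 of the 6 libraries left out, edgeR called 0 members, with the count of positive members between 75 and 77 of 78.

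**Figure D2:**
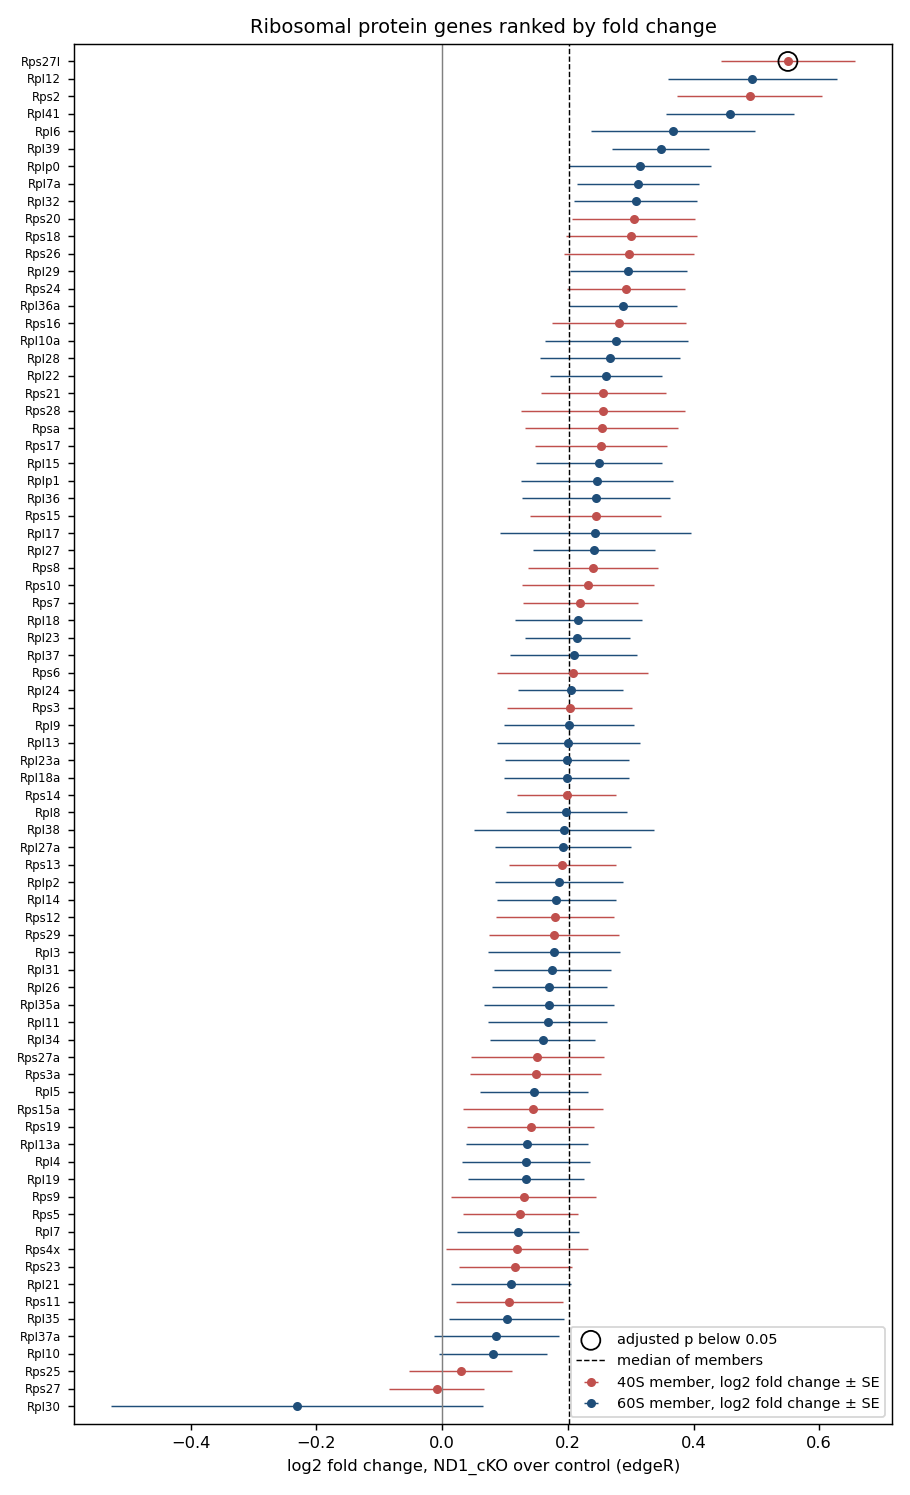
Log2 fold change (ND1_cKO over control, edgeR) of all 78 members with its standard error, n = 3 libraries per genotype, in red for 40S and blue for 60S members. The dashed line is the median of 0.20, the ringed point is Rps27l, the 1 member with an adjusted p below 0.05, and Rpl30 at the bottom has the widest error.

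Rps27l was the member edgeR called higher. It encodes a close relative of the 40S zinc finger protein of Rps27. It had 55.3, 61.2 and 69.0 CPM in ND1_cKO replicates 1, 2 and 3, against 45.0, 38.4 and 43.3 CPM in control replicates 1, 2 and 3. The genotypes did not overlap. The means of 61.8 ± 6.8 CPM in ND1_cKO and 42.2 ± 3.4 CPM in control (SD, n = 3 each) gave a 1.46-fold difference (log2 0.55 ± 0.11 SE, edgeR adjusted p = 0.0499). The call lies at the threshold. It was lost with limma-voom (adjusted p = 0.0531), with replicate number as a block (0.0712) and with any library left out (0.0624 to 0.177), and DESeq2 gave the lowest adjusted p, 0.000872. The log2 fold change stayed between 0.46 and 0.61 in all of these fits.

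Rps27, the standard form, overlapped between the genotypes. It had 333, 330 and 341 CPM in ND1_cKO replicates 1 to 3, against 349, 325 and 336 CPM in control replicates 1 to 3, a log2 fold change of -0.01 ± 0.08 (edgeR adjusted p = 0.963). Without control replicate 1 its sign turned to 0.02. Taken from log2(CPM + 0.5), Rps27l stood at 16.7%, 18.7% and 20.4% of Rps27 in ND1_cKO replicates 1 to 3. In control replicates 1 to 3 it stood at 13.0%, 12.0% and 13.0%. The log2 ratio was 0.55 higher in ND1_cKO, with no overlap. The exact permutation test, two-sided, gave p = 0.1, the lowest value 3 against 3 libraries can reach (adjusted p = 0.2 over 4 pairs).

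Differences in the ratios of the other pairs were smaller in size. Rpl22, an RNA-binding 60S protein, was at 0.26 ± 0.09 and its paralog Rpl22l1 at 0.21 ± 0.07, with edgeR adjusted p = 0.158 and 0.148. Their log2 ratio was 0.06 lower in ND1_cKO (exact permutation p = 0.6), and without control replicate 2 it was 0.002 higher. Rpl7 was at 0.12 ± 0.10 and Rpl7l1, whose product acts in ribosome assembly, at -0.07 ± 0.08. Their log2 ratio was 0.18 lower in ND1_cKO, without overlap (exact permutation p = 0.1, adjusted p = 0.2). Rpl36a was at 0.29 ± 0.09 and Rpl36al1, which RefSeq also lists as Rpl36al, at 0.17 ± 0.09. Their log2 ratio was 0.12 lower in ND1_cKO (exact permutation p = 0.3). Rpl3l, known from striated muscle, and Rpl39l, known from testis, were under 1 CPM and their pairs were not tested.

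Below Rps27l, the highest fold changes belonged to Rpl12, Rps2, Rpl41 and Rpl6, none of which passed the test. Rpl12, at the base of the stalk that binds elongation factors, had 296, 393 and 400 CPM in ND1_cKO replicates 1 to 3, against 278, 236 and 260 CPM in control replicates 1 to 3 (log2 0.49 ± 0.13, edgeR adjusted p = 0.0975). ND1_cKO replicate 1 lay close to the controls and the other ND1_cKO libraries well above them. Rps2, a protein of the mRNA entry channel, had 468, 507 and 525 CPM in ND1_cKO and 402, 309 and 357 CPM in control libraries (log2 0.49 ± 0.12, edgeR adjusted p = 0.0727). Rpl41, a very short peptide at the interface of the subunits, had 747, 804 and 807 CPM in ND1_cKO and 605, 511 and 602 CPM in control libraries (log2 0.46 ± 0.10, edgeR adjusted p = 0.0654). In both genes every ND1_cKO library was higher than every control. Rpl6 had 511, 496 and 532 CPM in ND1_cKO and 476, 347 and 369 CPM in control libraries (log2 0.37 ± 0.13, edgeR adjusted p = 0.172), with control replicate 1 close to the ND1_cKO range.

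Relative to the family median of the same library, Rps2 was 0.22, 0.32 and 0.32 higher on the log2 scale in ND1_cKO replicates 1 to 3 and 0.07, -0.06 and -0.01 in control replicates 1 to 3. Rpl41 was at 0.21, 0.30 and 0.26 in ND1_cKO and -0.02, -0.02 and 0.05 in control libraries on the same measure. Rps27 was at -0.19, -0.22 and -0.22 in ND1_cKO and -0.06, 0.09 and -0.03 in control libraries. Rps27l was at 0.21, 0.34 and 0.46 in ND1_cKO and -0.02, 0.00 and 0.01 in control libraries. Rps27l, Rps2 and Rpl41 have high and Rps27 a low fold change in these same libraries. Their positions follow in part from that. Other members, Rpl12, Rpl39 and Rps25 among them, also lay outside their own control range in every ND1_cKO library on this measure, so the position is not particular to these genes. With DESeq2, Rpl12, Rps2 and Rpl41 had adjusted p of 0.0133, 0.00242 and 0.000522. The other members DESeq2 called, listed after their values were seen, were Rpl39, Rpl7a, Rpl29, Rpl32, Rps24, Rps20, Rpl36a and Rplp0, beside Rps27l. Rpl39, which lines the exit tunnel, had 189, 206 and 198 CPM in ND1_cKO and 157, 147 and 162 CPM in control libraries (log2 0.35 ± 0.08, edgeR adjusted p = 0.0639).

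The stalk proteins recruit the elongation factors. Rplp0, the stalk's anchor and the member with most counts, had 1390, 1365 and 1487 CPM in ND1_cKO and 1284, 1044 and 1082 CPM in control libraries (log2 0.31 ± 0.11, edgeR adjusted p = 0.174). Its partners Rplp1 and Rplp2 were at 0.25 ± 0.12 and 0.19 ± 0.10, and did not pass (edgeR adjusted p = 0.291 and 0.342). For Rplp1 the genotypes overlapped, with 498 CPM in ND1_cKO replicate 3 and 524 CPM in control replicate 3.

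Rpl5 and Rpl11, which with 5S rRNA form the particle that binds MDM2 when assembly fails, were at 0.15 ± 0.09 and 0.17 ± 0.09 (edgeR adjusted p = 0.374 and 0.355). Rps6, the substrate of the S6 kinases, had 776, 776 and 911 CPM in ND1_cKO and 793, 635 and 704 CPM in control libraries (log2 0.21 ± 0.12, edgeR adjusted p = 0.364), with overlap. Rpsa, also known as a laminin receptor, was at 0.25 ± 0.12 (edgeR adjusted p = 0.281). The other members with most counts were Rpl4 (0.13 ± 0.10), Rpl3 of the catalytic core (0.18 ± 0.11) and Rps3a (0.15 ± 0.10), none past the test (edgeR adjusted p = 0.49, 0.373 and 0.455).

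At the low end stood Rpl37a (0.09 ± 0.10), Rpl10, which joins the 60S subunit late (0.08 ± 0.09), Rps25, needed for some internal initiation (0.03 ± 0.08), Rps27 and Rpl30. Rps25 had 333, 339 and 358 CPM in ND1_cKO and 352, 317 and 341 CPM in control libraries, and these overlapped. Its sign turned to -0.01 with total counts only, without ND1_cKO replicate 3 and without control replicate 2.

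Rpl30 had the lowest value and the widest error, -0.23 ± 0.30 (edgeR adjusted p = 0.697), and its counts went against those of Rpl30l2, which is named as like Rpl30. Rpl30 had 283, 131 and 214 CPM in ND1_cKO replicates 1 to 3, against 274, 184 and 279 CPM in control replicates 1 to 3. Rpl30l2 had 19.8, 177 and 99.3 CPM in ND1_cKO replicates 1 to 3, against 20.4, 86.1 and 19.4 CPM in control replicates 1 to 3. Where Rpl30 was low, Rpl30l2 was high, in both genotypes. Rpl30l2 took 6.5%, 57.5% and 31.7% of their sum in ND1_cKO libraries and 6.9%, 31.9% and 6.5% in control libraries. The sum was 303, 308 and 313 CPM in ND1_cKO libraries, against 294, 270 and 299 CPM in control libraries. Counted together, the pair was at a log2 fold change of 0.10 (edgeR adjusted p = 0.511), so the sign of Rpl30 depends on whether Rpl30l2 is counted with it, and the values of both genes are uncertain. Summing the pair was an alternative chosen after seeing the data.

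**Figure D3:**
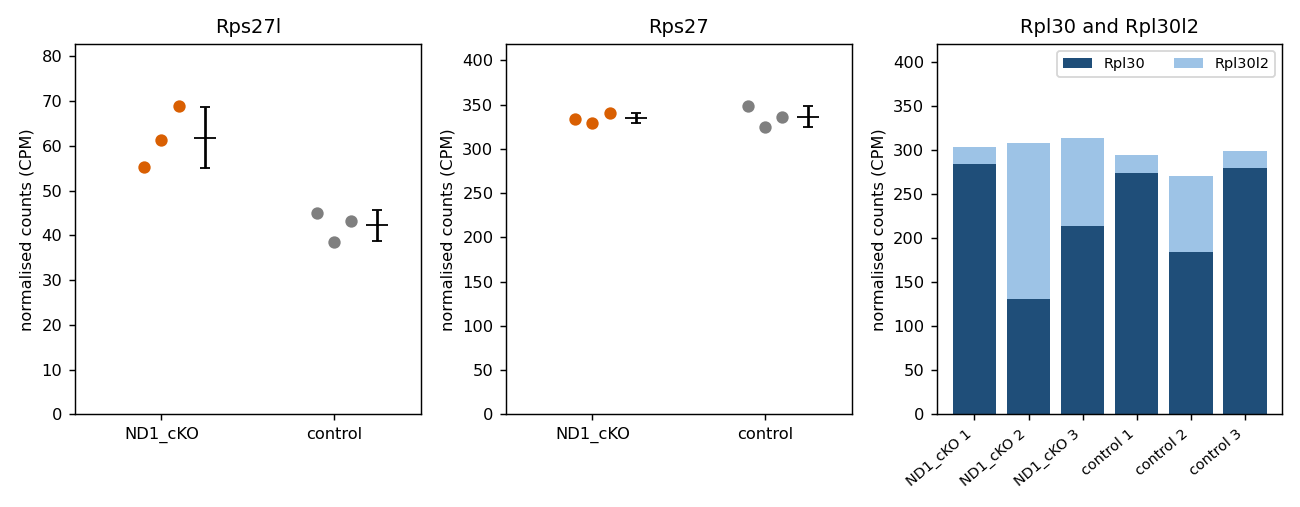
Left and centre, normalised counts (CPM) of Rps27l and Rps27, 1 point per library with the mean and SD beside them. The Rps27l points are 55.3 to 69.0 CPM in ND1_cKO and 38.4 to 45.0 CPM in control, while those of Rps27 overlap. Right, stacked bars of Rpl30 and Rpl30l2 per library, in which the parts vary and the sum stays between 270 and 313 CPM.

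The genes that build and run ribosomes had medians between those of all genes and of the ribosomal proteins. RNA polymerase I and its factors, which make the rRNA precursor, were positive in 9 of 15 genes with a median log2 fold change of 0.06. Factors of 40S assembly and rRNA processing were positive in 23 of 41 with a median of 0.02, and factors of 60S assembly in 20 of 39 with a median of 0.03. edgeR called 0 genes in each of these lists, with 1, 2 and 1 at an unadjusted p below 0.05. DESeq2 called 1, 1 and 0, and limma-voom 0. The edgeR background for these and the following lists was 21.4% of all genes at an unadjusted p below 0.05 and 2.42% called, in either direction. Nhp2, of the box H/ACA particles that modify rRNA, was at 0.41 ± 0.12 (edgeR adjusted p = 0.114) and Utp4 at -0.23 ± 0.09 (0.207). In the 60S list Gnl3, nucleostemin, was at 0.19 ± 0.08 and Sbds, which frees the 60S subunit for use, at -0.21 ± 0.10 (edgeR adjusted p = 0.215 and 0.264). Polr1d, a subunit shared by polymerases I and III, was at 0.33 ± 0.09 and Polr1f at 0.15 ± 0.11 (edgeR adjusted p = 0.0947 and 0.443).

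Initiation factors were positive in 25 of 36 genes with a median of 0.07. Elongation and termination factors, with the companions Naca, Btf3 and Tpt1, were positive in 15 of 16 with a median of 0.10. edgeR and limma-voom called 0 genes in either list, with 1 at an unadjusted p below 0.05 in each, and DESeq2 called 1 and 0. Eif3f, a subunit of the initiation complex eIF3, had 282, 283 and 284 CPM in ND1_cKO and 233, 210 and 209 CPM in control libraries (log2 0.38 ± 0.08, edgeR adjusted p = 0.0549). Its genotypes stood apart with little spread. Eif4a2, a helicase, was at -0.22 ± 0.10 (edgeR adjusted p = 0.260). Eef1g was at 0.29 ± 0.11 and Eef1b2 at 0.24 ± 0.11 (edgeR adjusted p = 0.198 and 0.239), while Eef1a1, the main elongation factor and a classical TOP gene named after its value was seen, was at 0.01 ± 0.11.

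Among 8 related genes that the naming rule leaves out, 6 were positive and edgeR, DESeq2 and limma-voom called 0, with 1 at an unadjusted edgeR p below 0.05. The lowest p-values belonged to Rpl22l1, given above, and to Rack1, the 40S scaffold, at 0.24 ± 0.10 (edgeR adjusted p = 0.238). Fau, which encodes a 40S protein fused to a ubiquitin-like protein, was at 0.07 ± 0.09 (edgeR adjusted p = 0.679). Of 22 regulators of ribosome production, 11 were positive and the median was 0.00. edgeR and limma-voom called 0 of them (1 at an unadjusted p below 0.05) and DESeq2 1. Myc, which drives transcription of ribosomal genes, had 52.6, 40.7 and 63.0 CPM in ND1_cKO and 38.9, 30.8 and 32.6 CPM in control libraries (log2 0.61 ± 0.17, edgeR adjusted p = 0.104). Every ND1_cKO library was above every control. Eif4ebp1, an mTOR target that blocks initiation, was at 0.31 ± 0.17 (edgeR adjusted p = 0.342).

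Small nuclear-encoded subunits of the respiratory chain were positive in 37 of 38 genes with a median of 0.26, above that of the ribosomal proteins. edgeR called 1 of them higher, Cox8a of cytochrome c oxidase (0.55 ± 0.11, adjusted p = 0.0495), a list count that was 0 with limma-voom and 5 with DESeq2. Cox8a had 123, 131 and 108 CPM in ND1_cKO and 90.7, 74.4 and 82.8 CPM in control libraries, without overlap, and Ndufb2 was at 0.55 ± 0.14 (adjusted p = 0.085). The summed level of this list was 2939, 3184 and 2825 CPM in ND1_cKO libraries and 2745, 2204 and 2525 CPM in control libraries, with control replicate 2 lowest here too.

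**Figure D4:**
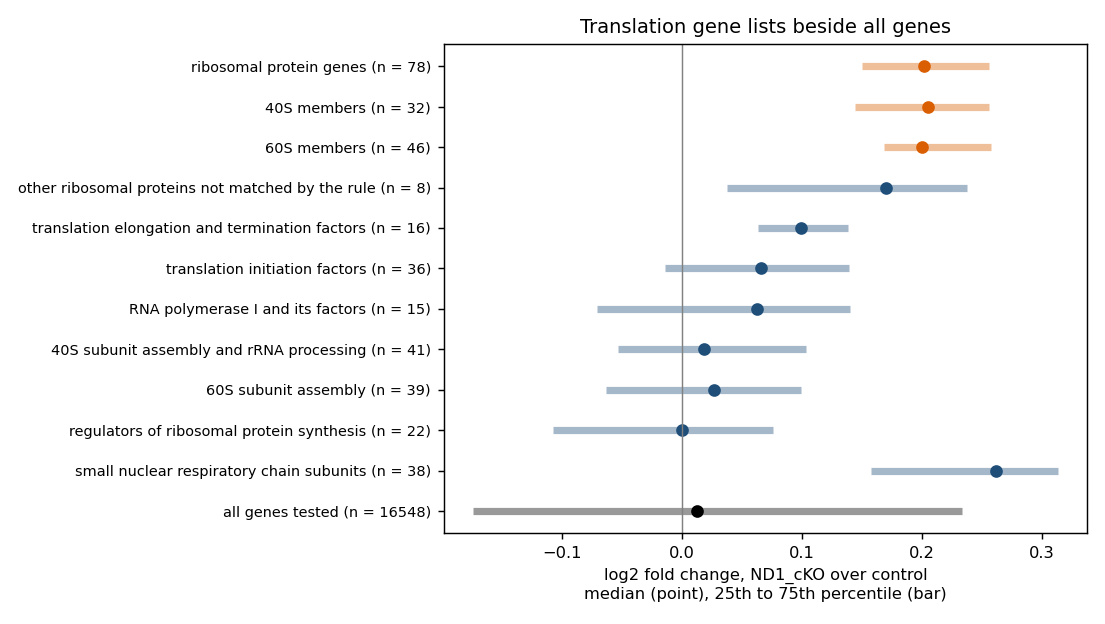
Median (point) and 25th to 75th percentile (bar) of the log2 fold changes, ND1_cKO over control, for the ribosomal protein genes, their subunits, translation lists, small respiratory subunits and all genes. Ribosomal proteins (0.20) and small respiratory subunits (0.26) lie to the right of all genes (0.01), and the assembly and initiation lists lie between 0.02 and 0.07.

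Markers of several cell types moved in the same libraries. As background, DESeq2 called 980 of all 16548 genes higher and 915 lower, and limma-voom 155 higher and 221 lower. By edgeR 188 were called higher and 212 lower, and 11.1% were higher and 10.2% lower at an unadjusted p below 0.05. Of 10 proliferation genes 10 were positive, 9 of them at an unadjusted edgeR p below 0.05 and 0 called by edgeR or limma-voom, with 9 called by DESeq2. Their summed level was 144 to 276 CPM in ND1_cKO and 57.2 to 156 CPM in control libraries. Control replicate 1 was highest and control replicate 2 lowest among controls. The ribosomal protein medians, the small respiratory subunits and the 40S assembly list had that order too, so it is not particular to proliferation genes. Among ND1_cKO libraries replicate 3 was lowest, the library with the highest ribosomal protein median. The part of proliferation in the ribosomal protein values was not tested. The 10 B cell genes were all negative, with a summed 67.6 to 124 CPM in ND1_cKO and 155 to 202 CPM in control libraries. Of 10 T and NK cell genes 9 were negative, with a summed 264 to 324 CPM in ND1_cKO and 312 to 385 CPM in control libraries. The 1 positive gene, Cd4, was a large part of these sums, with 137 to 176 CPM in ND1_cKO and 115 to 143 CPM in control libraries. Cd4 was at a log2 fold change of 0.33 ± 0.13 (edgeR adjusted p = 0.192), so the sums understate the fall of the other genes. Which cells the Cd4 counts came from was not tested. edgeR called 0 in these lymphocyte lists. At an unadjusted edgeR p below 0.05, 8 B cell and 9 T and NK cell genes were lower and Cd4 was higher. DESeq2 called 8 and 7 lower and limma-voom 0 and 1. Macrophage genes were positive in 8 of 9 tested, with 4 higher at an unadjusted edgeR p below 0.05 and 0 called by edgeR, 3 by DESeq2 and 1 by limma-voom. Their summed 15342 to 24693 CPM in ND1_cKO and 17492 to 20986 CPM in control libraries overlapped and came mostly from Lyz2, at a log2 fold change of 0.00 ± 0.22. Without overlap, Spp1 was at 3.76 ± 0.69, Siglec1 at 1.01 ± 0.20 and Gpnmb at 1.01 ± 0.26, with edgeR adjusted p between 0.0526 and 0.0941. Fibroblast genes were positive in 6 of 10, with 0 called by edgeR or limma-voom, 4 higher and 1 lower at an unadjusted p below 0.05 and 4 called higher by DESeq2. Their summed level was 3315 to 9262 CPM in ND1_cKO and 2245 to 2965 CPM in control libraries. This sum holds genes of opposite sign, with log2 fold changes from -0.38 to 2.58 and a median of 0.14, so it does not describe the list as a whole. Alveolar type 1 genes were negative in 9 of 10, with a summed 4123 to 7011 CPM in ND1_cKO and 7309 to 9247 CPM in control libraries. In this list edgeR called 1 lower, Cav1 (adjusted p = 0.042), with 5 lower at an unadjusted p below 0.05, 5 called lower by DESeq2 and 1 by limma-voom. Cav1 had 617 to 783 CPM in ND1_cKO and 1057 to 1411 CPM in control libraries. Whether its counts came from alveolar type 1 or other lung cells was not tested. All 7 plasma cell genes were negative, with 0 called by edgeR or limma-voom, 2 lower at an unadjusted p below 0.05 and 1 called lower by DESeq2. They summed to 1515 to 2001 CPM in ND1_cKO and 2232 to 2521 CPM in control libraries. These sums came mostly from Jchain, with 786 to 1310 CPM in ND1_cKO and 1422 to 1700 CPM in control libraries. The neutrophil and erythroid sums overlapped between the genotypes. Neutrophil genes were positive in 7 of 8 and erythroid genes in 4 of 9, with 0 called by edgeR, DESeq2 or limma-voom. The neutrophil sums were 68.9, 100 and 208 CPM in ND1_cKO replicates 1 to 3 and 54.6 to 113 CPM in control libraries. All 12 endothelial genes were negative, with a summed 3273 to 3451 CPM in ND1_cKO and 5119 to 5628 CPM in control libraries. Of these edgeR called 5 lower, DESeq2 9 and limma-voom 6, with 10 lower at an unadjusted edgeR p below 0.05. None of the marker genes tested was at 0 in any library, and the part of cell makeup in the ribosomal protein values was not tested.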

How the data were processed

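Whole-lung RNA was sequenced from 3 ND1_cKO and 3 control rats. The authors deposited a table of raw read counts by gene symbol with a column for every library, and column names gave the sample (0 columns unmatched). The submitters' processing notes name fastp, HISAT2, HTSeq, DESeq2 and R 4.3.3 without saying what each did. Genome build, annotation, strand setting and treatment of multiply matching reads were not given in the sources used here. Ribosomal protein genes have many near-identical copies and may share or lose reads, and reads of overlapping or antisense genes may be mixed.

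Genes kept by filterByExpr (16548) were tested with edgeR 4.0.16 (quasi-likelihood, robust, two-sided, TMM, genotype as the only factor) with Benjamini-Hochberg adjustment over all of them. The standard error was taken as the size of the log2 fold change divided by the root of the F statistic. Limma-voom (limma 3.58.1) and DESeq2 1.42.0 were alternatives. The edgeR step was checked on simulated data. Libraries are separate animals per the series description, and no pair agreed within sampling noise (chi-square per degree of freedom 23.7 or more). The biological coefficient of variation was 0.22. CPM use TMM factors and are not per length, so levels are not compared between genes. Paralog ratios use log2(CPM + 0.5).

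Named genes were the called members, the 5 highest and 5 lowest fold changes, the 5 members with most counts, the stalk, 5S particle, Rps6, Rpsa and paralog pairs, and in each translation list called genes and the 2 lowest p-values. The members and lists were chosen with earlier results of these data known. Values of some genes of these lists are not reported here. Promoter sequences are RefSeq's for GRCr8.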

Additional observations from a re-analysis of the deposited data

How the results depend on the processing

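The median log2 fold change of ribosomal protein genes, 0.20, lay between 0.16 (total counts only) and 0.21 in the other fits over all 6 libraries and between 0.14 and 0.26 with a library left out, always positive. The 1 member called by edgeR was 12 with DESeq2, 4 with limma-voom and library weights, 0 with limma-voom and 0 with the replicate block, and 0 to 0 with a library left out. It was 1, Rps27l each time, with DESeq2-type size factors, total counts only, TMM factors computed without the members, no filter, a 1 CPM minimum, related genes that the rule leaves out added to the members, no member minimum (Rpl3l and Rpl39l were not kept for testing) and Rpl30 summed with Rpl30l2. Calls over all genes were 400 with edgeR, 1895 with DESeq2, 376 with limma-voom, 950 with library weights and 262 with the replicate block. Leaving out control replicates 1, 2 or 3 gave 184, 0 or 9 such calls, and leaving out ND1_cKO replicates 1, 2 or 3 gave 23, 363 or 495. Replicate numbers were not taken to pair the animals. Deviations of same-numbered libraries correlated at 0.23, 0.04 and 0.14, which cannot settle a pairing, because differently numbered libraries were not compared. The share difference of 0.40 points was 0.28 to 0.50 with a library left out. The log2 fold change turned sign for Rps25 with total counts only (-0.0079), and with a library left out it ranged from -0.014 to 0.062 for Rps25, from -0.034 to 0.018 for Rps27 and from -0.52 to 0.0066 for Rpl30. Rpl30 summed with Rpl30l2 was at 0.10. The Rpl22l1 to Rpl22 log2 ratio ranged from -0.092 to 0.0020 with a library left out. The cause was not tested. Every member had at least 1258 counts in every library, and the effect of depth on the calls was not tested.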

Other observations

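Genes named as like a member, which the rule leaves out, add a few values. Rps18l1, named as like the 40S gene Rps18 and chosen here after its values were seen, had 48.2, 47.4 and 49.6 CPM in ND1_cKO libraries, against 39.5, 32.5 and 40.8 CPM in control libraries. The genotypes did not overlap, and its log2 fold change of 0.37 ± 0.10 had an edgeR adjusted p of 0.101 and a DESeq2 adjusted p of 0.0378, beside 0.30 ± 0.10 for Rps18 itself. Reads of like-named genes may be exchanged in counting, so the values are uncertain. Rpl31l4 was at 0.27 ± 0.17, Rps15al4 at 0.08 ± 0.17, Rpl5l1 at 0.15 ± 0.16 and Rpl10l1 at -0.64 ± 0.32, all with overlap between the genotypes and edgeR adjusted p between 0.304 and 0.821.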
